A study of Homo sapiens with 20 samples.

Results

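A set of 10 genes of protein folding in the endoplasmic reticulum (ER) was followed through libraries of crosslinked RNA. The RNA was recovered with antibody to the RNA-binding protein IGF2BP3. The chaperones were HSPA5 (ENSG00000044574), HSP90B1 (ENSG00000166598), CALR (ENSG00000179218), CANX (ENSG00000127022), HYOU1 (ENSG00000149428) and DNAJB11 (ENSG00000090520). The disulfide isomerases were PDIA3 (ENSG00000167004), PDIA4 (ENSG00000155660), PDIA6 (ENSG00000143870) and P4HB (ENSG00000185624). All were taken by name, with no measured value in the rule, as 10 of the 19962 genes of the count table. The choice was made with earlier results of these data known. After 4 h of tunicamycin 7 of the 10 were recovered at higher levels than in the vehicle, led by HSPA5 at 5.13-fold and HSP90B1 at 3.86-fold, and none was lower, while 2.79% of all genes tested were higher. After 1 h none passed the same test. After arsenite HSP90B1 and PDIA3 were higher and P4HB, CANX and CALR were lower than in the vehicle, in a comparison that called 34.8% of all genes tested, 17.6% higher and 17.1% lower. The 5 others did not pass the test or, for DNAJB11, had too few counts to be tested. With library totals as the scaling, 0 of the 10 genes differed between antibody libraries and those made with control IgG by the same test. Under another scaling 2 were higher with the antibody. The 10 genes took 0.589% of the counts in the IgG library of 4 h tunicamycin (68 counts) and 0.369% in that of its vehicle (29 counts). Whether the rise was specific to IGF2BP3 was not tested.

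HCT116 cells, an established line from a human colorectal carcinoma, were used with the genotype Tet-OsTIR1-PURO, which lets a plant protein used for induced protein degradation be switched on; the labels list no use of it. All 5 conditions shared this genotype and 100 µM 4-thiouridine (4sU) for 15 h, crosslinking at 365 nm with 0.15 J/cm2, and lysate from pooled dishes of cells. The method was PAR-CLIP, in which 4sU taken up into new RNA is crosslinked by ultraviolet light to protein in contact with it, the protein is immunoprecipitated, and a crosslinked 4sU shows in the sequence as a T-to-C change. Of the 20 libraries 15 were made with antibody to IGF2BP3, 3 for each condition, and 5 with control IgG, 1 for each.

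Cells received tunicamycin (TM) for 1 h or for 4 h at a concentration of 5 µg/mL. Its vehicle was DMSO diluted 1:1000 for 4 h, so both times were compared with the same 4 h vehicle libraries. Arsenite was given at 250 µM for 2 h, and its vehicle was PBS diluted 1:1000 for 2 h. The sample titles call this compound arsenite, whereas the treatment labels call it sodium arsenate. The library names place all PBS and arsenite libraries in 1 set. The DMSO and TM groups are split, with replicates 1 and 2 in a set of their own and replicate 3 in a further set that also holds the IgG libraries of these groups. The protocol names more than 1 concentration of each RNase without saying which library received which.

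The ER is where secreted and membrane proteins are folded. HSPA5 (BiP or GRP78) is its Hsp70 chaperone and HSP90B1 (GRP94) its Hsp90 chaperone, HYOU1 (GRP170) exchanges the nucleotide of HSPA5, and DNAJB11 (ERdj3) is a J-domain partner that brings it substrates. CALR (calreticulin, soluble) and CANX (calnexin, in the membrane) bind glycoproteins through their sugar chains, and the PDI enzymes PDIA3 (ERp57), PDIA4 (ERp72), PDIA6 (P5) and P4HB (PDI itself) form and rearrange disulfide bonds. Tunicamycin blocks the first step of N-linked glycosylation, so that unfolded glycoproteins collect in the ER and set off the unfolded protein response, in which transcription of many of these genes is known to rise. Arsenite causes oxidative stress, arrests translation and produces stress granules. IGF2BP3 is a cytoplasmic protein of cancer and fetal cells that binds many messenger RNAs, often near their 3′ ends.

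A library held 130478 to 1568406 gene counts with the anti-IGF2BP3 antibody (median 465032) and 5981 to 17503 with IgG. The 10 genes took 0.317% to 0.641% of the counts in anti-IGF2BP3 libraries, with a DMSO mean of 0.341% ± 0.003 and a TM 4 h mean of 0.530% ± 0.096 (SD, n = 3). Levels are given as counts-per-million values (CPM), scaled by the TMM method across the 15 anti-IGF2BP3 libraries. They are not per length, so each gene is compared only with itself. A level holds both how much of an RNA the cells had and how much of it was crosslinked, and RNA abundance was not analysed here. In a lysate of many cells, more cells holding an RNA and more of it per cell cannot be told apart either. The labels do not say that replicates came from separate cultures, so p-values measure only the spread between these libraries, which may be technical. Strand was known for 4 of the 12 cell type markers listed. Of these KRT8 had 424 cluster reads in 14 of the 15 libraries and CDX2, an intestinal transcription factor, 16 reads in 2, while the leukocyte marker PTPRC and the mesenchymal marker VIM had none.

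The authors' lists of clusters, which are stretches of overlapping crosslinked reads called in each library, show where on these genes the reads lay. Of 412123 clusters in the 15 libraries, 781 lay on the sense strand of the 10 genes, with 34672 reads against 40206 counts in the gene table, and no cluster lay on the opposite strand of any of the 10 spans. Clusters of different libraries that overlapped were joined into regions. The deepest region held 96.1% of the reads of P4HB, 97.9% of those of PDIA6, 87.1% of those of CALR, 84.6% of those of PDIA4 and 83.4% of those of HSPA5. CANX had a pair of deep regions side by side, with 47.8% and 44.7%. In HSP90B1, PDIA3 and HYOU1 the deepest region held only 28.8%, 29.4% and 35.0%, out of 17, 12 and 9 regions. The number of regions did not set these genes apart. HSPA5 had 17, CALR and CANX 12 each, P4HB 10, PDIA4 7 and PDIA6 5. DNAJB11 had 3 clusters with 20 reads in all.

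The bases below, from the deposited cluster sequences (hg38), lie around the mode position listed for the deepest cluster of each gene's deepest region. That position need not be a crosslinked T, and in CALR it was a G. The windows are shown because the regions they mark hold most of the reads of 7 of the genes. Of these CANX needs both of its regions, and DNAJB11 had only 20 reads. Capitals mark the 4-letter words searched for on the cluster strand: CATA, CATC or CATT, ACAC, and GGAC.
HSPA5, chr9:125236545-125236574, minus strand: ctgtaatattgtaaatactGGACtcaggaa
HSP90B1, chr12:103934238-103934267, plus strand: gtaattgctgacccaagaggaaACACtcta
CALR, chr19:12944282-12944311, plus strand: ggagcccagaggagggcagcagaagggggt
CANX, chr5:179730300-179730329, plus strand: tcacttaaattcttttgaggatgggatgta
CANX, chr5:179729452-179729481, plus strand: agcagggcatggcacgtgagctccggaata
PDIA3, chr15:43771285-43771314, plus strand: actaGGACcCATAtgggaattattacctct
PDIA4, chr7:149003572-149003601, minus strand: cagatttttacagaggataCATCtattttt
PDIA6, chr2:10784158-10784187, minus strand: CATTctctACACtcagatgactctaccagt
HYOU1, chr11:119044990-119045019, minus strand: ttggcttcctgcagcaaattgggcagttct
P4HB, chr17:81843946-81843975, minus strand: cgggggctgcACACccagcagcagcgcacg
DNAJB11, chr3:186585590-186585619, plus strand: aagaatgaccagcaaaaggtttactaatac
These windows had no long word in common, and 5 of the 11 held none of the words searched. Over whole clusters, ACAC occurred in a median of 27.5% of clusters on the 10 genes in a library and 21.3% of all clusters, and the share was higher on the 10 genes in 15 of 15 libraries. CATA, CATC or CATT occurred in 65.6% and 64.5%, and GGAC in 13.5% and 12.7%. Clusters on the 10 genes were also longer, with a median of 57.0 against 50.0 bases, and longer clusters hold any word more often.

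**Figure D1:**
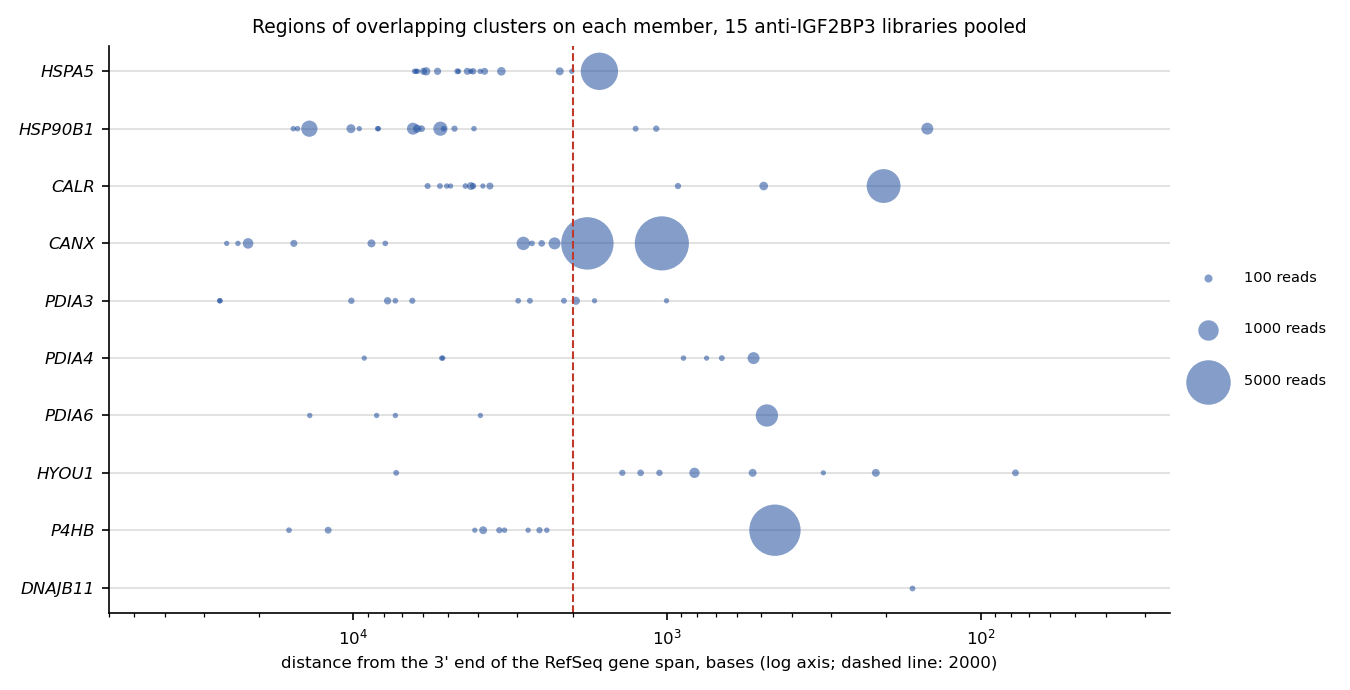
Each circle is a region of overlapping clusters on 1 of the 10 genes, placed by its distance in bases from the 3′ end of the gene's RefSeq span (log axis), with an area that follows its reads in the 15 anti-IGF2BP3 libraries. Distances are on the genome, with introns included. The large circles of HSPA5, CALR, CANX, PDIA4, PDIA6 and P4HB lie within 2000 bases of the end (dashed line). Those of HSP90B1 and PDIA3 are scattered along the span.

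The comparison of TM 4 h with DMSO addressed recovery once ER stress was established. Of the 10 genes 7 were higher and 0 lower by the quasi-likelihood test of edgeR, with p-values adjusted over all 8343 genes tested (Benjamini-Hochberg) and called under 0.05, where 5.11% of all genes were called in either direction and 2.79% were higher. The median log2 change of the 10 was 0.83, and that of all genes 0.00. The Hsp70 and Hsp90 chaperones changed most, PDIA3, PDIA4 and HYOU1 by about the same amount each, CALR and PDIA6 less, and CANX, P4HB and DNAJB11 were not called.

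HSPA5, the chaperone whose release from the stress sensors starts the response, had 211, 192 and 232 CPM in DMSO and 958, 1447 and 896 CPM at TM 4 h. Every TM 4 h library lay several times above every DMSO library, with replicate 2 the highest. The log2 change was 2.36 (SE 0.11, edgeR adjusted p 3.06e-27), the 8th highest of the 8343 genes. With the set of replicates 1 and 2 alone it was 2.62, and over all alternatives tried 2.10 to 2.62.

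HSP90B1, which folds a narrower set of clients such as integrins and Toll-like receptors, had 142.7, 97.1 and 113 CPM in DMSO and 382, 515 and 407 CPM at TM 4 h. The groups were far apart here too, and replicate 2 was again the highest. The log2 change was 1.95 (SE 0.12, edgeR adjusted p 1.43e-21), the 10th highest of all genes tested.

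The lectin chaperones, the soluble CALR and the membrane-bound CANX, are close relatives in structure. CALR had 384, 329 and 328 CPM in DMSO and 452, 642 and 432 CPM at TM 4 h, with no overlap, and rose by 0.57 on the log2 scale (SE 0.10, edgeR adjusted p 5.03e-05). CANX had 1572, 1633 and 1752 CPM in DMSO and 1789, 2162 and 1611 CPM at TM 4 h. Its groups overlapped, since TM 4 h replicate 3 fell among the DMSO values, and the log2 change of 0.15 (SE 0.08) was not called (edgeR adjusted p 0.287). In the set of replicates 1 and 2 alone CANX was called, at 0.31 (edgeR adjusted p 0.0204).

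Among the disulfide isomerases PDIA3, the partner of CALR and CANX on glycoproteins, had 57.6, 57.6 and 49.1 CPM in DMSO and 101, 127 and 98.6 CPM at TM 4 h. The groups lay clearly apart, with a log2 change of 1.00 (SE 0.17, edgeR adjusted p 2.00e-05). PDIA4 had 63.1, 46.9 and 55.5 CPM in DMSO and 69.7, 129 and 102 CPM at TM 4 h, a log2 change of 0.94 (SE 0.17, edgeR adjusted p 1.24e-04). Its groups did not overlap, but TM 4 h replicate 1 was only just above the highest DMSO library. PDIA6, which is known to bind HSPA5 and to quiet the sensor IRE1, had 126, 181 and 161 CPM in DMSO and 227, 252 and 204 CPM at TM 4 h. It rose by 0.46 on the log2 scale (SE 0.12, edgeR adjusted p 0.0118), and this was the weakest of the 7 calls. DESeq2 did not call it (adjusted p 0.100), nor did edgeR without DMSO replicate 1, DMSO replicate 3 or TM 4 h replicate 2, with adjusted p-values of 0.0693, 0.0621 and 0.122. P4HB, the founding member of the family and a subunit of collagen prolyl hydroxylase, had 793, 835 and 772 CPM in DMSO and 771, 1046 and 825 CPM at TM 4 h. These groups overlapped, and the log2 change of 0.14 (SE 0.08) was not called (edgeR adjusted p 0.404).

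Of the partners of HSPA5, HYOU1 had 115, 89.6 and 86.9 CPM in DMSO and 137, 243 and 160.4 CPM at TM 4 h. All TM 4 h values were above all DMSO values, and the log2 change was 0.96 (SE 0.15, edgeR adjusted p 6.50e-06). DNAJB11 was near the limit of detection, with 4 to 29 counts per library. It had 10.98, 11.7 and 14.5 CPM in DMSO and 29.2, 21.5 and 18.7 CPM at TM 4 h, without overlap, yet the log2 change of 0.73 (SE 0.37) was not called (edgeR adjusted p 0.297). Altogether 8 of the 10 genes had every TM 4 h library above every DMSO library, where this held for 10.6% of the genes compared. TM 4 h replicate 2 was the highest library of its group for 9 of the 10 genes, and without it the count of higher genes was 6, with PDIA6 lost.

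**Figure D2:**
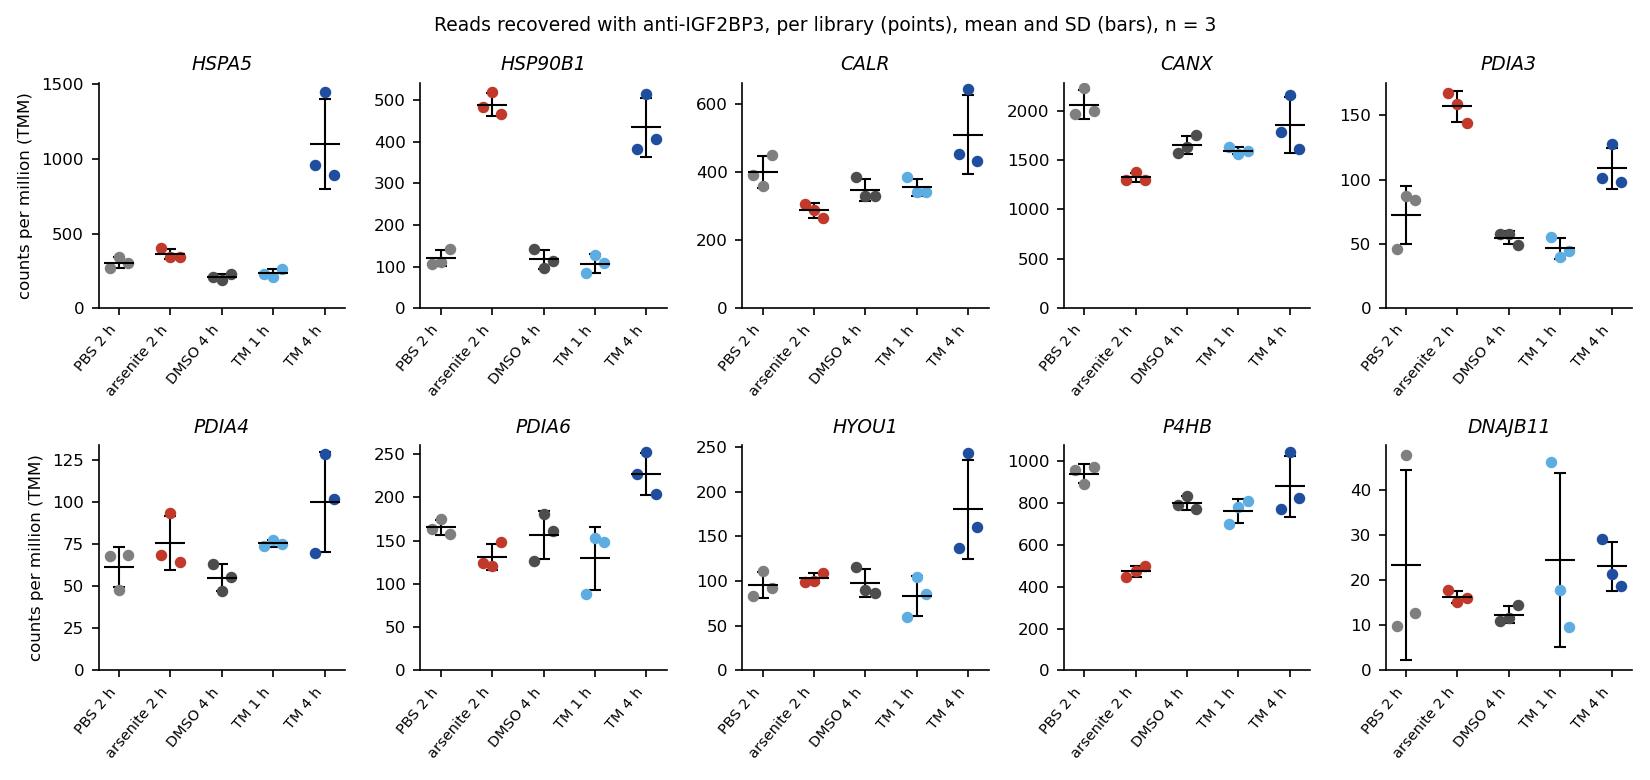
CPM of the 10 genes in each of the 15 anti-IGF2BP3 libraries (points) with the group mean (bar), in 5 conditions with 3 libraries each. HSPA5 stands at 896 to 1447 CPM at TM 4 h and at or below 404 CPM in every other library, whereas HSP90B1 and PDIA3 are raised at TM 4 h and under arsenite, and P4HB and CANX are lowest under arsenite.

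At TM 1 h 0 of the 10 genes were called against DMSO, where 0.551% of all genes were (46 of 8343), and 1 of the 10 had an unadjusted p under 0.05 in edgeR and 0 in DESeq2. HSPA5 had 227, 206 and 266 CPM and HSP90B1 had 83.3, 129 and 107 CPM. Both ranges overlapped those of DMSO, and the log2 changes were 0.18 (SE 0.14) and -0.03 (SE 0.16). The gene with the low p was PDIA4, at 74.0, 77.7 and 74.8 CPM. These libraries were close together and above all DMSO libraries, as were those of 7.87% of the genes compared, with a log2 change of 0.49 (SE 0.20, edgeR adjusted p 0.377). The log2 changes of all 10 genes lay between -0.27 (PDIA3) and 0.49 (PDIA4). In simulated libraries with the same means and depths but 1 common spread for all genes, 68% of genes changed 2-fold were called in this comparison. That share is over all genes and does not give the sensitivity for these 10. Their SEs ran from 0.08 (CANX) to 0.43 (DNAJB11), so a small early change could have been missed.

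The direct comparison of TM 4 h with TM 1 h, which shares its TM 4 h libraries with the comparison above, called 6 of the 10 genes, all higher at 4 h, where 11.6% of all genes were called and 5.6% were higher. The log2 differences were 2.18 for HSPA5 (SE 0.12, edgeR adjusted p 3.38e-24), 1.98 for HSP90B1 (SE 0.13, edgeR adjusted p 8.71e-20), 1.27 for PDIA3, 1.05 for HYOU1, 0.67 for PDIA6 and 0.53 for CALR. These 6 also had every TM 4 h library above every TM 1 h library, where this held for 14.5% of the genes compared. PDIA4 was the gene called against DMSO but not against TM 1 h. Its difference between the times was 0.45 (SE 0.18, edgeR adjusted p 0.0953), and TM 4 h replicate 1 lay below every TM 1 h library. Without that replicate PDIA4 was called, at 0.56 (edgeR adjusted p 0.0323). CANX, at 0.21 (SE 0.08, edgeR adjusted p 0.0677), and P4HB, at 0.19 (SE 0.09, edgeR adjusted p 0.172), were not called, and neither was DNAJB11. CANX was called at 0.32 without TM 4 h replicate 3 (edgeR adjusted p 0.00538), with library totals (0.0279), in the fit over 15 libraries (0.0411) and at 0.33 with the set of replicates 1 and 2 alone (0.00773).

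Arsenite was compared with PBS to describe the same genes under oxidative stress. Of the 9 genes that passed the filter on low counts (DNAJB11 did not), 2 were higher and 3 were lower, where 34.8% of the 6642 genes tested were called, 17.6% higher and 17.1% lower. The share of the 9 called was thus not far above that of genes at large, but the sizes differed widely, and the median log2 change of the 9 was 0.18.

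HSP90B1 had 107, 111 and 142.7 CPM in PBS and 482, 519 and 466 CPM under arsenite. The groups were as far apart as at TM 4 h, with a log2 change of 1.99 (SE 0.13, edgeR adjusted p 8.15e-29), the 45th highest of the genes tested. PDIA3 had 46.3, 87.4 and 84.1 CPM in PBS and 167, 159 and 144 CPM under arsenite, again without overlap, and rose by 1.18 on the log2 scale (SE 0.20, edgeR adjusted p 7.39e-07). These are the chaperone and the isomerase with the most scattered cluster reads. HSPA5 had 271, 342 and 303 CPM in PBS and 404, 343 and 341 CPM under arsenite, so the groups touched. Its log2 change of 0.27 (SE 0.12) missed the threshold (edgeR adjusted p 0.0542). The call was gained without PBS replicate 2, arsenite replicate 2 or arsenite replicate 3, with adjusted p-values of 0.0301, 0.0486 and 0.0485 in edgeR.

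The genes that fell were P4HB and the lectin chaperones. P4HB had 958, 890.0 and 973 CPM in PBS and 444, 476 and 499.8 CPM under arsenite, a log2 change of -0.99 (SE 0.08, edgeR adjusted p 3.75e-21). CANX had 1962, 2233 and 1992 CPM in PBS and 1299, 1377 and 1302 CPM under arsenite, a log2 change of -0.61 (SE 0.06, edgeR adjusted p 2.33e-15). CALR had 392.5, 358 and 451 CPM in PBS and 307, 289.7 and 265 CPM under arsenite, a log2 change of -0.54 (SE 0.11, edgeR adjusted p 3.14e-05). None of the 3 overlapped between the groups, nor did HSP90B1 and PDIA3, which lay above PBS as 21.0% of the genes compared did. PDIA6 did not overlap either, at 163, 175 and 158 CPM against 124, 121 and 148 CPM, but was not called at -0.27 (SE 0.16, edgeR adjusted p 0.193), and groups lay apart in this direction for 19.7% of the genes compared. PDIA4 and HYOU1 had log2 changes of 0.18 (SE 0.24) and 0.20 (SE 0.20) with overlapping groups. DNAJB11 had 4, 6 and 5 counts in the PBS libraries and 7, 9 and 17 under arsenite, too few to compare.

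**Figure D3:**
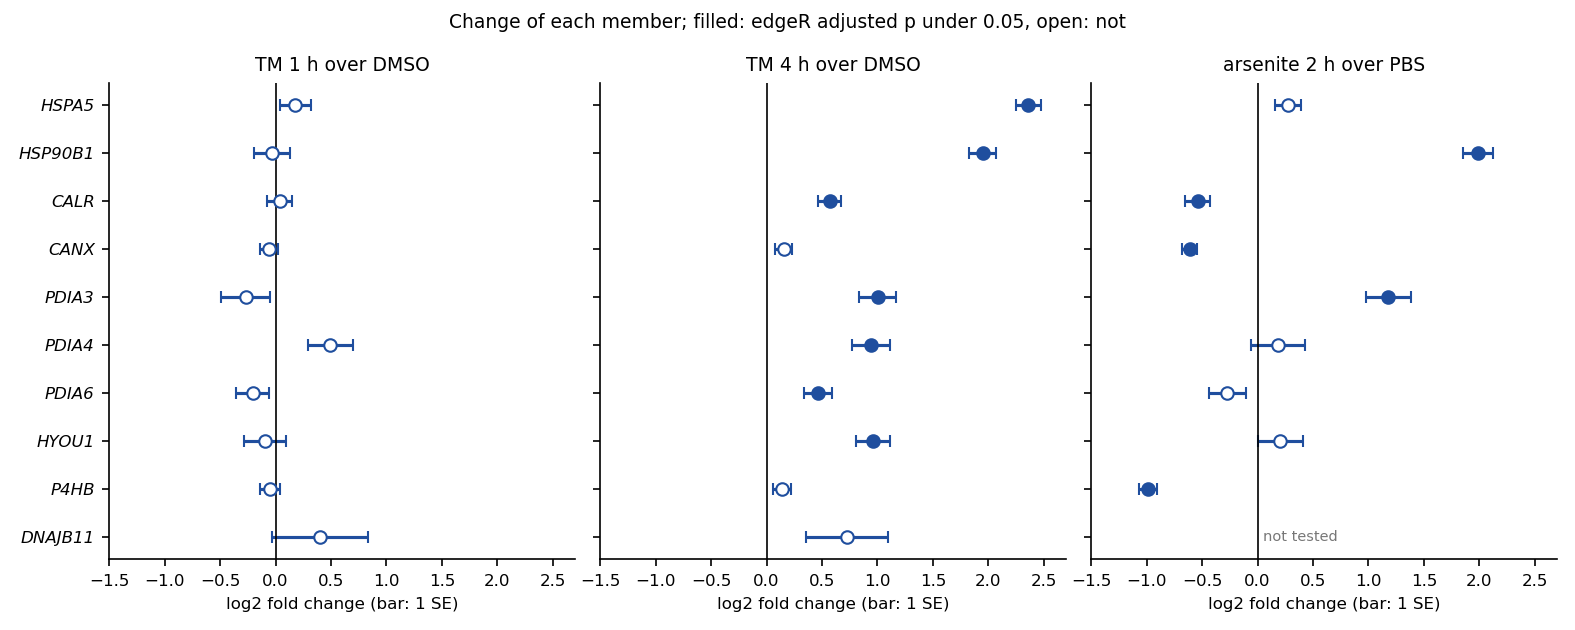
Log2 change of the 10 genes, with an SE derived from the edgeR test, for TM 1 h and TM 4 h against DMSO and for arsenite against PBS. DNAJB11 was not tested under arsenite and has no value there. The TM 1 h values lie between -0.27 and 0.49, the TM 4 h values lie at or above 0.14, and the arsenite values run from -0.99 for P4HB to 1.99 for HSP90B1.

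Whether a gene changed differently under the 2 h arsenite and the 4 h TM treatment was tested as the arsenite change minus the TM 4 h change, each against its own vehicle. Of the 10 genes 6 were called, all with the lower change under arsenite, where 18.3% of the 7796 genes tested were called and 9.74% were lower. The difference was -2.09 for HSPA5 (SE 0.19, edgeR adjusted p 1.29e-14), -1.14 for P4HB, -1.11 for CALR, -0.78 for CANX, -0.76 for HYOU1 and -0.74 for PDIA6. For HYOU1 (SE 0.26, edgeR adjusted p 0.0333) the call was lost with DESeq2 (adjusted p 0.108) and without the low-count filter (0.0821). The same held without any 1 of PBS replicates 1, 2 and 3, arsenite replicates 1 and 2, DMSO replicates 2 and 3 and TM 4 h replicate 2, with edgeR adjusted p-values of 0.0525 to 0.158. PDIA4 was not called at -0.77 (SE 0.31, edgeR adjusted p 0.0710), but was without arsenite replicate 2 (0.0378) or TM 4 h replicate 1 (0.0333). HSP90B1 and PDIA3 were not called, with differences of 0.03 (SE 0.20, edgeR adjusted p 0.937) and 0.17 (SE 0.28, edgeR adjusted p 0.725). A p that misses the threshold does not show equal changes, and the times and library sets of the stresses differ. Set and stress cannot be told apart here except through the vehicles.

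Across the 5 conditions the mean level was highest at TM 4 h for HSPA5, CALR, PDIA4, PDIA6 and HYOU1, highest under arsenite for HSP90B1 and PDIA3, and highest in PBS for CANX and P4HB. Arsenite gave the lowest mean of CALR, CANX and P4HB. For HSP90B1 the top neighbours, arsenite at 489 ± 27.3 CPM and TM 4 h at 435 ± 70.6 CPM (SD, n = 3), overlapped, while for PDIA3 arsenite at 157 ± 11.8 CPM lay above TM 4 h at 109 ± 16.0 CPM in every library. For PDIA4 the order was TM 4 h at 100.1 ± 29.6, TM 1 h at 75.5 ± 1.93 and arsenite at 75.5 ± 16.0 CPM, all overlapping. DNAJB11 had its highest means at TM 1 h and in PBS, each from 1 library, at 46.3 and 47.7 CPM from 10 and 6 counts. The vehicles themselves differed. DMSO lay below PBS in every library for HSPA5, CANX and P4HB, at 0.694, 0.801 and 0.851 of the PBS mean, where groups lay apart in this direction for 8.32% of the genes compared, so levels are read against the vehicle of the same set.

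The position of the reads along the gene span was compared as well. Distances were taken on the genome with introns included, so they are not distances along the spliced RNA. In 8 of the 10 genes at least 82.9% of cluster reads, pooled over libraries, lay in the last 2000 bases of the gene span, and in HSP90B1 and PDIA3 17.0% and 29.97% did. The share of the 10 genes' cluster reads that lay further upstream was 12.6%, 7.1% and 14.6% in the PBS libraries and 30.3%, 31.8% and 33.4% under arsenite. At TM 4 h it was 17.5%, 23.6% and 18.7%, at TM 1 h 12.8%, 12.3% and 4.5%, and in their vehicle 11.2%, 13.1% and 6.5%. Arsenite lay above PBS and TM 4 h above DMSO in every library, and TM 1 h overlapped DMSO. For all other genes the mean shares were 45.5% at TM 4 h, 42.5% at TM 1 h and 44.2% in DMSO, and 51.5% under arsenite against 40.6% in PBS. The window was chosen after the positions had been seen.

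Depth differed between these groups too, with 130478 to 423906 counts in PBS, 414033 to 1098488 under arsenite, 374238 to 1287291 in DMSO and 457179 to 1568406 at TM 4 h, and its part in the share was not tested. Scaled by each library's gene counts to reads-per-million values (RPM), reads near the end stood at 2849 ± 64.8 in PBS and 1737 ± 121 under arsenite (SD, n = 3), and reads elsewhere at 374 ± 145 and 815 ± 113. In DMSO and at TM 4 h the values were 2641 ± 235 and 3734 ± 571 near the end and 299.3 ± 97.9 and 954 ± 348 elsewhere. The groups lay apart in each of these 4 pairs of values, which were not tested further. All other genes together also had more reads elsewhere under arsenite, at 229629 ± 48498 RPM against 132758 ± 46273 in PBS. Near the end they had 214788 ± 34828 under arsenite and 191231 ± 54883 in PBS. In DMSO and at TM 4 h the other genes had 275666 ± 53855 and 269430 ± 45937 near the end. Elsewhere they had 221054 ± 59950 and 227557 ± 56891.

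The upstream reads came mostly from few genes. Of the 374 RPM in PBS, CANX had 348 ± 118 and HSP90B1 9.92 ± 17.2. Under arsenite CANX had 279 ± 39.1, less than in PBS on average, and HSP90B1 334 ± 23.6, PDIA3 71.1 ± 7.24 and HSPA5 37.2 ± 15.2. At TM 4 h HSP90B1 had 282 ± 54.6, against 50.1 ± 13.5 in DMSO, and CANX 375 ± 258, against 229 ± 107. The upper of the deep regions of CANX reaches across the 2000-base limit, so its reads fall on both sides.

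In CALR, a smaller contributor, reads near the end were 319 ± 38.2 RPM in PBS and 163 ± 11.6 under arsenite, while those elsewhere were 5.79 ± 10.0 and 62.2 ± 14.1. A region of CALR lay 4219 bases from the span end. In reads not scaled for depth, it had 7 in 1 PBS library and 53 over all 3 arsenite libraries. It also had 6 in 1 DMSO library, 0 at TM 1 h and 27 over 2 TM 4 h libraries. The bases around the mode position of its deepest cluster hold 4 overlapping or adjacent ACAC words:
CALR, chr19:12940241-12940270, plus strand: aggatgatgagtttACACACctgtACACAC
P4HB, with nearly all its reads near the end, had 785 ± 62.7 RPM there in PBS and 322 ± 35.6 RPM under arsenite. The largest part of the rise of HSPA5 at TM 4 h lay in its main region, chr9:125236237-125236755, where it had 162 ± 18.8 RPM in DMSO and 780.4 ± 226 at TM 4 h. Elsewhere on HSPA5 the values were 2.08 ± 3.61 and 197 ± 75.3 RPM. In HSP90B1 most reads lay upstream in every condition, for example at these sites in its deepest and second region, and the shares upstream were 84.8% in DMSO and 80.8% at TM 4 h.
HSP90B1, chr12:103934238-103934267, plus strand: gtaattgctgacccaagaggaaACACtcta
HSP90B1, chr12:103942644-103942673, plus strand: gaagaccactcgaatcgaACACgtcttgct

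**Figure D4:**
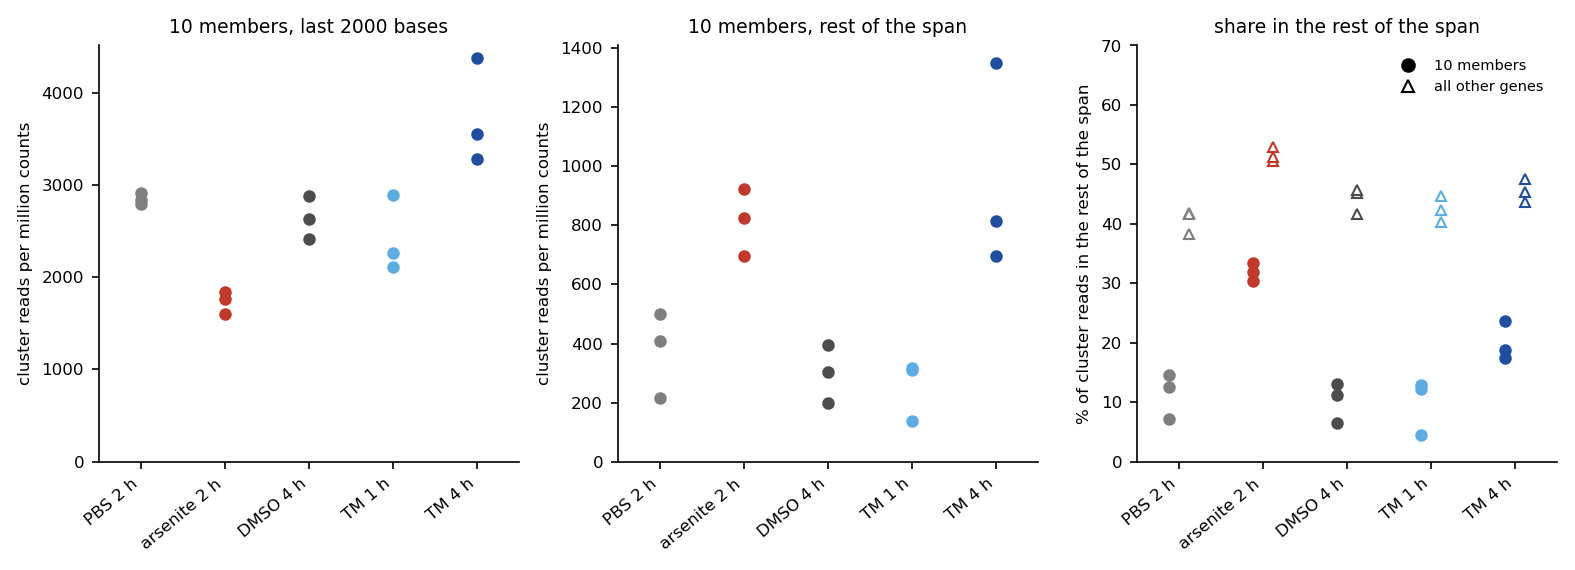
Cluster reads of the 10 genes in each anti-IGF2BP3 library (points), as reads-per-million values relative to gene counts. They are split at 2000 bases from the 3′ end of the gene span. The last panel shows the percent of cluster reads further upstream, for the 10 genes and for all other genes. Near the end arsenite libraries are below PBS and TM 4 h libraries above DMSO, and further upstream both stresses lie above their vehicles.

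The conversion share is given here as the T-to-C events at clusters in percent of all events there. At clusters of the 10 genes it was 6.95% ± 0.23 in PBS and 7.93% ± 0.12 under arsenite, and 6.97% ± 0.28 in DMSO, where TM 1 h had 6.97% ± 0.33 and TM 4 h had 7.38% ± 0.24 (SD, n = 3). All arsenite libraries were above all PBS libraries, by 0.98 points on average. An exact permutation test (two-sided) gave p = 0.1, below which 3 libraries a group cannot go, and 0.3 after adjustment over the 3 comparisons. At TM 4 h the difference was 0.42 points with an exact permutation p of 0.2 (adjusted 0.3), and at TM 1 h it was 0.00 with a p of 1.0. At all clusters the mean shares were higher, and they also stood above the vehicle under arsenite (8.70% against 8.01% in PBS) and at TM 4 h (8.24% against 7.83% in DMSO), with 7.73% at TM 1 h.

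The IgG libraries hold what the beads recover without the specific antibody. With library totals as the scaling, 0 of the 10 genes differed between anti-IGF2BP3 and IgG libraries by the same edgeR test, where 1.31% of the 7022 genes tested were called (92 genes, 709 at an unadjusted p under 0.05). Of the 92 genes 86 were lower with the antibody and 6 higher, and with TMM scaling, which called 582, 60 were lower and 522 higher. Of the 10 genes PDIA4 had an unadjusted p under 0.05, at a log2 difference of -1.43, lower with the antibody (edgeR adjusted p 0.283). With TMM scaling CALR, at 1.17 (edgeR adjusted p 0.0280), and CANX, at 0.81 (edgeR adjusted p 9.59e-05), were higher with the antibody, but the same scaling moved the median of all genes to 0.71, and both values are read relative to it. The 10 genes had 68 counts in the IgG library of TM 4 h, 20 in that of TM 1 h, 29 in that of DMSO, 23 in that of arsenite and 61 in that of PBS. Without TMM scaling these came to 5892 CPM (95% exact Poisson interval 4575 to 7469), 3344 CPM (2043 to 5164), 3688 CPM (2470 to 5296), 2456 CPM (1557 to 3685) and 3485 CPM (2666 to 4477). In the same order the pooled antibody libraries had 5187, 3340.5, 3414, 3272 and 4071 CPM, each within the interval of its IgG library. HSPA5 alone had 4 IgG counts in DMSO and 11 at TM 4 h, 509 CPM (139 to 1302) and 953 CPM (476 to 1705), beside 208 and 1037.5 CPM with the antibody. The intervals cover counting error only, and at this depth the 10 genes were not distinguishable from the IgG background by their counts. Clusters on the 10 genes numbered 0 in the IgG libraries of PBS, DMSO and TM 1 h, 2 in that of arsenite and 1 at TM 4 h.

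**Figure D5:**
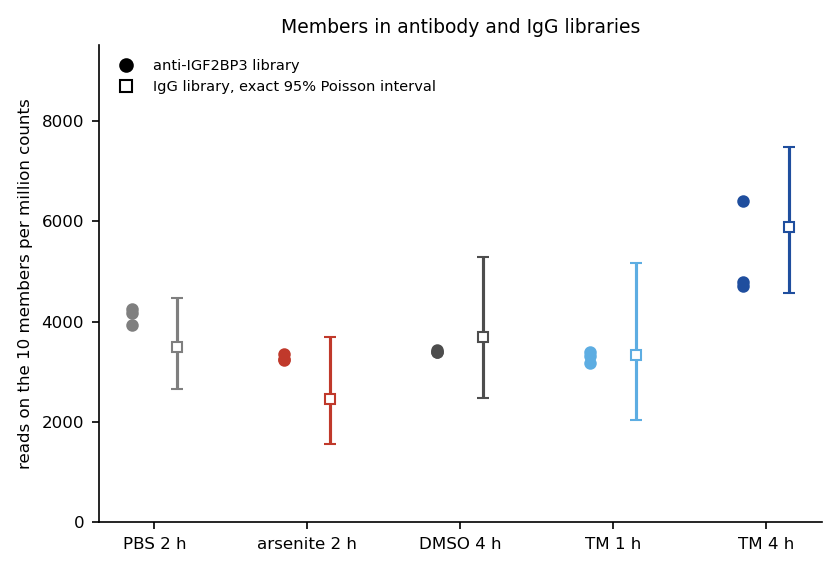
CPM (without TMM scaling) of the 10 genes in the single IgG library of each condition, with exact 95% Poisson intervals. Points beside it are the 3 anti-IGF2BP3 libraries of the same condition. The antibody libraries lie within the IgG interval in all 5 conditions. The TM 4 h values are the highest of both series, at 5892 with IgG. The pooled antibody value of 5187 is not drawn.

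Another 38 genes of ER folding and quality control were looked at through reads in clusters, since the count table gives gene identifiers that could be paired with names only for the 10 genes. For 35 of them the strand was known, 28 had at least 1 cluster in the 15 libraries and 8 had clusters in every library. In edgeR's test on cluster reads per gene, which is far less sensitive, 1 of the 19 that could be tested and 2 of the 9 testable genes of the 10 (HSPA5 and HSP90B1) were higher at TM 4 h than in DMSO, where 0.232% of 3887 genes were called. The 1 was HERPUD1, a membrane protein of ER-associated degradation. It had 0, 12 and 7 reads in DMSO, none in any TM 1 h library and 110, 401 and 497 reads at TM 4 h (edgeR adjusted p 3.11e-05). It also rose under arsenite, from 6, 0 and 0 reads in PBS to 96, 134 and 265. DNAJB9, a co-chaperone that holds IRE1 inactive, had 0, 0 and 7 reads at TM 1 h and 52, 157 and 254 at TM 4 h, and was called between the times (edgeR adjusted p 0.0095), where 0.309% of genes were, but not against the 0, 34 and 31 reads of DMSO. At TM 1 h no gene was called.

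Under arsenite 1 of the 12 testable genes of this list rose (HERPUD1) and 3 fell, where 12.5% of 2228 genes were called, 9.25% higher and 3.23% lower. The 3 were TXNDC5, an oxidoreductase, at -0.93 (SE 0.19), PPIB, a prolyl isomerase, at -1.55 (SE 0.39), and CALU, a calcium-binding protein, at -1.18 (SE 0.29) on the log2 scale. TXNDC5 had 3223, 3728 and 3519 reads in PBS, scaled to reads-per-million of cluster reads, and 2304, 1622 and 1651 under arsenite, without overlap. Of the 10 genes HSP90B1 was higher and P4HB and CANX were lower by this measure, 3 of 8 testable. The difference between the stresses was called for 0 of 16 genes of the list and for 3 of 9 of the 10 genes (HSPA5, P4HB and CALR), all with the lower change under arsenite, where 3.42% of 3362 genes were called and 0.565% were lower.

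The promoters of these genes are known for the ER stress response element, to which ATF6 binds together with the factor NF-Y. It was searched for as CCAAT, any 9 bases, and CCACG, on both strands, in RefSeq promoter sequences (GRCh38.p14) from 250 bases before to 50 bases after the start. A window was given for 9 of the 10 genes (not PDIA3). It held the element in 5 of the 9 (HSPA5, HSP90B1, CALR, CANX and PDIA6) and in 0.092% of all genes with a window (25 of 27305). A related element, ATTGG, any base and CCACG, was in HYOU1 and in 0.070% of genes (19). PDIA4, P4HB and DNAJB11 held neither by these exact letters. Of the 35 listed pathway genes with a window, CRELD2 and ERO1B held the first element and HERPUD1 and SDF2L1 the second. The stretches are printed because the genes carrying them include those with the largest rise at TM 4 h and also CANX, which was not called. The first 2 run from 200 to 41 bases before the start, the others are the 30 bases around an element, and capitals mark the element on either strand.
HSPA5, chr9:125241384-125241543, minus strand: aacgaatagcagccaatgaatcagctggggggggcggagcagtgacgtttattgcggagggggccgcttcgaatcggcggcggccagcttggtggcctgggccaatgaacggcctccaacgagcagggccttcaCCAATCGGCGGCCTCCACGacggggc
HSP90B1, chr12:103930210-103930369, plus strand: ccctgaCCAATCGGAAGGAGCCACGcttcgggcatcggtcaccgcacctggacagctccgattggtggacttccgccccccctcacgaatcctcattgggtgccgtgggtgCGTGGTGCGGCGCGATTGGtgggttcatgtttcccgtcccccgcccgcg
CALR, chr19:12938379-12938408, plus strand: ccacgCGTGGTCGACCATCATTGGtcggtg
CANX, chr5:179698773-179698802, plus strand: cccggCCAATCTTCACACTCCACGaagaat
PDIA6, chr2:10812847-10812876, minus strand: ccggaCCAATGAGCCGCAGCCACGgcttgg
HYOU1, chr11:119057366-119057395, minus strand: cgtgaCGTGGTCCAATcccaggccgacgcc
HYOU1, chr11:119057260-119057289, minus strand: tgggaCGTGGTCCAATgagtacgcgcgccg
HSP90B1 and HYOU1 each held their element at 2 places. A match to these letters describes the sequence and is not a measured site of binding.

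HSPA5, HSP90B1 and PDIA3 have near-identical copies elsewhere, and some cluster sequences were shared with them. HSPA5P1, a copy on chr1:38708730-38711089, had 43 clusters with 2316 reads in all 15 libraries, 55.1% as many as HSPA5 itself, and 3 of the 43 carried the sequence of an HSPA5 cluster. Its reads numbered 299 in the DMSO libraries and 1300 at TM 4 h. HSP90B2P and HSP90B3P, copies of HSP90B1, had reads in 9 and 10 libraries (394 reads for HSP90B3P). Of their clusters 2 of 37 and 7 of 29 carried the very sequence of an HSP90B1 cluster. HSP90B2P had 0 reads in PBS, 154 under arsenite, 13 in DMSO and 214 at TM 4 h. For HSP90B3P these numbers were 0, 167, 18 and 195. PDIA3P1 had 189 reads in 6 libraries, 125 of them under arsenite and 59 at TM 4 h, and 14 of its 23 clusters had the sequence of a PDIA3 cluster of the same library. How the deposited counting divided such reads is not given in the sources used here, so the levels of HSPA5, HSP90B1 and PDIA3 are uncertain in this respect.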

How the data were processed

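PAR-CLIP libraries of HCT116 cells (15 anti-IGF2BP3 and 5 IgG) were analysed from a deposited table of raw read counts per gene and from a deposited list of clusters for each library. Per the submitters' processing notes, the authors made these counts with bcl2fastq 2.20.0.422, UMI-tools 1.1.1, Trimmomatic 0.30, Bowtie 0.12.7 and featureCounts 2.0.1 on GRCh38.p13 and hg38. Per the file headers, the cluster lists give position, strand, sequence, reads, conversion locations and conversion events. The program that called clusters, and how reads with several matches were counted, are not given in the sources used here. The 2 lists of the PBS and arsenite IgG libraries carry conflicting names and were used for the library to which each is attached. 0 value columns belonged to no library.

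Genes were filtered with filterByExpr, scaled by TMM (factors 0.977 to 1.02 over the 15 libraries) and tested with the quasi-likelihood test of edgeR 4.0.16 (R 4.3.3, limma 3.58.1), two-sided, with Benjamini-Hochberg adjustment over all genes tested and a threshold of 0.05. DMSO and both TM groups shared 1 fit, PBS and arsenite another, and the difference between stresses used 12 libraries. The IgG comparison used all 20 libraries, library totals and condition as a covariate. Simulated libraries took the mean of each gene and the depths from the data, with 1 common spread for all genes. The 2-fold changes put into simulated libraries of 8129 genes for TM 1 h against DMSO were recovered at 68%, those among 8173 genes for TM 4 h against DMSO at 78.5%, those among 8153 genes for TM 4 h against TM 1 h at 77.5%, those among 6422 genes for arsenite at 81.5% and those among 7587 genes for the difference between stresses at 50.5%.

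Clusters were placed on RefSeq gene spans (GRCh38.p14) by overlap on the same strand, and cluster sequences carried the same bases as the RefSeq promoter windows in 514 of 514 clusters that lay inside one. The strand of PDIA3, which had no promoter entry, was taken from its clusters. Gene identifiers were paired with names only for the 10 genes, so the other ER genes and the markers were looked at by cluster reads per RefSeq gene, an alternative added after the files had been seen, as was the window at the 3′ end. Protein sequences were not used here. Shares of conversion events were compared by exact permutation tests. Alternatives were library totals, DESeq2 1.42.0, no filter, robust moderation, 1 fit over 15 libraries, each replicate left out, the replicate number or library set as a block, 1 library set alone, and stricter cluster minimums. Python 3.11.15 with pandas 2.3.3, numpy 2.4.6, scipy 1.17.1 and matplotlib 3.10.9 was used for clusters and figures.

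All 10 genes are described, and no other gene was to be named by its change, except the genes of the pathway list that were called and the genes most like the 10, by Pearson r of log2 CPM (prior count 2) with the centred mean of the 10, leaving out genes whose mean count was below 50. The genes, the lists and the rules were chosen with earlier results of these data known.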

Additional observations from a re-analysis of the deposited data

Results flagged for a closer look

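Several of the 10 genes are listed because a test of the difference between 2 effects was called in edgeR (adjusted p under 0.05). Between arsenite and TM 4 h, each against its own vehicle, the log2 change differed by -2.09 for HSPA5, -1.14 for P4HB, -1.11 for CALR, -0.78 for CANX, -0.76 for HYOU1 and -0.74 for PDIA6, always lower under arsenite. HYOU1 was called under 9 of the 19 alternatives. Between TM 4 h and TM 1 h the log2 difference was 2.18 for HSPA5, 1.98 for HSP90B1, 1.27 for PDIA3, 1.05 for HYOU1, 0.67 for PDIA6 and 0.53 for CALR. These 6 genes were called under every alternative fitted to the gene counts. The groups held 3 libraries each, too few for a search for libraries that stand apart.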

How the results depend on the processing

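Of 24 calls on single genes, 22 held under every alternative fitted to the gene counts. The exceptions were PDIA6 at TM 4 h and HYOU1 in the difference between stresses. Of 25 results not called, 5 were called under some alternative. Over the count-table alternatives the number of the 10 genes called was 6 to 8 at TM 4 h, 6 to 7 between the TM times, 5 to 6 under arsenite, 5 to 7 for the difference between stresses and 0 at TM 1 h. With reads in clusters in place of gene counts, which were fewer, these numbers were 2, 2, 3, 3 and 0. TMM scaling gave 2 calls against IgG. Within 500 bases of the span end 2 genes had most of their reads, against 8 within 2000.

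Directions turned only among results that were not called. For HSP90B1 at TM 1 h the value was 0.017 with replicates 1 and 2 alone and ran from -0.147 to 0.050 with 1 replicate left out. DNAJB11 ran from -0.077 to 1.08 at TM 1 h and from -0.35 to 0.80 between the TM times, where the set of replicates 1 and 2 gave -0.16. P4HB at TM 4 h ran from -0.0061 to 0.21. The differences between stresses ran from -0.074 to 0.24 for HSP90B1 and from -0.12 to 0.47 for PDIA3. The conversion share at TM 1 h minus DMSO was -0.015 points for clusters of at least 10 reads, -0.0074 for at least 3 conversion locations, and -0.186 to 0.162 with 1 replicate left out. The cause of these turns was not tested.

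Over all genes DESeq2 called fewer, 6 against 46 at TM 1 h, 151 against 426 at TM 4 h, 502 against 967 between the times, 1233 against 2310 under arsenite and 854 against 1427 for the difference between stresses. The set of replicates 1 and 2 gave 16, 129 and 488 for the TM comparisons, and leaving out 1 library 13 to 41, 178 to 431 and 523 to 859. Against IgG, 92 genes (86 lower with the antibody) became 582 with TMM (60 lower), 156 without the filter and 60 without the PBS and arsenite IgG libraries. Libraries that shared a replicate number did not deviate together (r from -0.05 to 0.02 over 12 pairs). With the replicate number as a block the counts of the 10 genes stayed 0, 7, 6, 5 and 6, and those of all genes were 43, 371, 902, 2111 and 1247. Depth limits DNAJB11 and every IgG value most.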

Other observations

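Across the 15 anti-IGF2BP3 libraries the 10 genes fell into differing patterns. The Pearson r of log2 CPM was 0.89 for HSP90B1 with PDIA3, 0.87 for CANX with P4HB and 0.84 for HSPA5 with HYOU1, but -0.55 for PDIA3 with P4HB and -0.49 for HSP90B1 with P4HB. These values describe libraries that share conditions and sets, and depend on them. Of 3329 other genes with enough counts, the most like the mean of the 10 were ENSG00000101255 (r 0.957) and ENSG00000113739 (r 0.950), whose names the files do not give.

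The crosslinked stretches differed in base content. Clusters of HYOU1 and CALR held 32.2% and 31.2% C and 16.4% and 18.3% A, while those of PDIA4 and CANX held 37.9% and 35.0% T. For all 10 genes together C was 24.0% and T 31.0%, close to the 24.9% and 31.6% of all clusters.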
